A study of Homo sapiens with 8 samples.

Results

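Unperturbed states of the same cell line were set against each other: RMG1 cells carrying a control shRNA and RMG1 cells with no perturbation. The members are the 2 libraries labelled as shRNA control and the 2 labelled as wild type, 4 of the 8 libraries of the series, and all genes were compared. RMG1 cells derive from an ovarian clear cell carcinoma and are an established human line. Both groups are labelled wild type for ARID1A and for CAPH2, the protein product of the gene NCAPH2. The other 4 libraries are 2 of cells in which ARID1A was knocked out with CRISPR (CAPH2 wild type) and 2 of cells with an shRNA against CAPH2 (ARID1A wild type). Of the control shRNA, the labels give neither sequence nor vector, and neither the time since it was introduced, any selection, nor whether a group is 1 clone or a pool is stated. An effect of carrying an shRNA therefore cannot be told apart from one of vector, selection or growth apart. Whether 2 libraries of a group stand for 2 cultures is not stated either, so the spread behind each p-value may be technical.

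A control shRNA is a hairpin RNA that is processed by the same enzymes as the microRNAs but is meant to match no transcript of the cell. Carrying it usually means that cells took up a vector, were selected for it and were grown as a line of their own beside the parent cells. ARID1A, a subunit of SWI/SNF chromatin remodelling complexes, is often mutated in this cancer, and NCAPH2 belongs to condensin II, which shapes chromosomes.

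Total counts were 24559547 and 27144974 in the wild-type libraries and 32831617 and 36731763 in the shRNA control libraries, and between 31562201 and 37378691 in the other 4. Levels are given in CPM (each gene's share of a library's counts, scaled for library size and composition), for libraries 1 and 2 in that order. Of 57736 gene IDs in the table, 16657 passed the filter on low counts and were tested. The labelled cell type was met by its markers: EPCAM, an epithelial adhesion protein, stood at 810.2 and 654 CPM in wild-type and 786 and 813 CPM in shRNA control libraries. The 6 epithelial markers summed to 3035 to 3384 CPM over the 4 libraries. The 6 fibroblast markers summed to 0.418 to 0.464 CPM, with COL1A2, COL3A1 and LUM at 0 in all 4 libraries, and 6 leukocyte markers to 0.217 to 0.435 CPM, with CD3E and SPI1 among those at 0. The 4 endothelial markers found summed to 0.531 to 1.03 CPM, with KDR at 0.

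Neither target of the study's perturbations was called between these groups. NCAPH2 stood at 26.8 and 30.0 CPM in wild-type and 24 and 25.8 CPM in shRNA control libraries, a log2 fold change of −0.19 (SE 0.09) that did not pass the test (adjusted p = 0.186). ARID1A stood at 8.8 and 12.1 CPM in wild-type and 9.87 and 9.69 CPM in shRNA control libraries (−0.10, SE 0.15, adjusted p = 0.71), so the groups overlapped. Each fold change here and below is a log2 value, shRNA control minus wild type, and SE is its standard error. A gene was called where edgeR's quasi-likelihood test, fitted over all 8 libraries and adjusted by Benjamini-Hochberg over all genes tested, gave an adjusted p under 0.05.

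Many genes differed between these unperturbed groups, most of them slightly. CADM1, an immunoglobulin-family adhesion protein, stood at 63.2 and 64.8 CPM in wild-type and at 241 and 239 CPM in shRNA control libraries (1.91, SE 0.06, adjusted p = 2.04e-08), the lowest adjusted p of all genes. CDH6, a cadherin also found in kidney, went the other way, from 258 and 257 CPM to 89.9 and 90.0 CPM (−1.52, SE 0.05, adjusted p = 7.18e-08). In all, 3205 of 16657 genes were called (19.2%). Of these, 1520 (9.13%) were higher and 1685 (10.1%) lower in shRNA control cells. Most were small: 2193 of the called genes (68.4%) differed by less than 1.5-fold, and the median size was 0.42 on the log2 scale against 0.23 over all genes tested. A difference of at least 2-fold was found for 454 genes (2.73%), 296 higher (1.78%) and 158 lower (0.949%). In 3204 of the called genes the 2 libraries of one group lay wholly above those of the other, as they did for 57.5% of all genes tested. Without shRNA control library 1 the count of called genes was 1553, and without shRNA control library 2 it was 1599.

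For scale, the same fit called 2639 genes (15.8%) between CAPH2 knockdown and shRNA control and 5751 (34.5%) between ARID1A knockout and wild type. Each of these comparisons shares 2 libraries with the one described here.

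**Figure D1:**
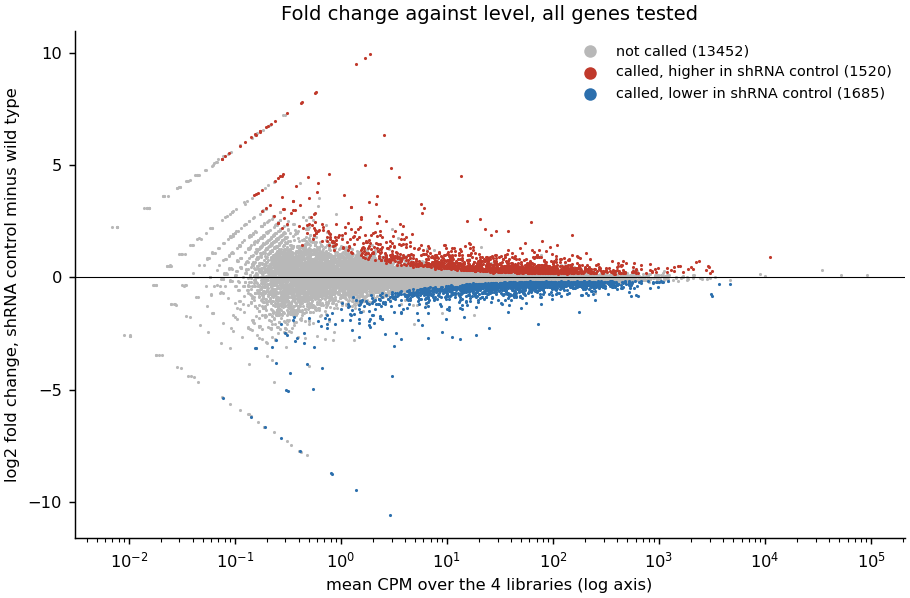
Each point is a gene tested, by its mean CPM over the 4 libraries (x, log axis) and its log2 fold change, shRNA control minus wild type (y); red points are the 1520 genes called higher, blue points the 1685 called lower and grey points those not called. Genes below about 1 CPM needed large fold changes to be called, while above 10 CPM most called genes lie within 1 of zero on the log2 scale.

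The level of a gene set what could be called. Of the 4165 genes of lowest mean level (up to 1.3 CPM), 2.88% of genes were called higher and 1.18% lower, with a median SE of 0.643. Of the 4164 of highest level (from 38.8 CPM), 14.9% were higher and 21.4% lower, with a median SE of 0.064. By gene type, 1356 of 12930 protein-coding genes were higher and 1585 lower, and 68 of 1721 long noncoding RNAs were higher and 29 lower.

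The largest rises were in genes that wild-type libraries barely held. ASZ1, a germ-cell protein of the piRNA pathway, had no count in wild-type libraries and stood at 2.6 and 2.99 CPM in shRNA control libraries, at least 48.4-fold higher. The bound takes a floor of 3 counts over the wild-type group. ASZ1 also stood at 2.99 and 4.03 CPM in CAPH2 knockdown and at 0.0274 and 0 CPM in ARID1A knockout libraries, so both groups with an shRNA were high and both without were at or near 0. MAGEA1, an antigen otherwise made mainly in testis, stood at 0.0827 and 0.0362 CPM in wild-type and 4.74 and 5.39 CPM in shRNA control libraries, a ratio of 87.7 with an exact 95% counting interval of 29.8 to 427. Floors and such intervals cover counting error only, since PCR copies are not independent molecules. The placental galectin gene LGALS14 rose from 1.24 and 1.05 CPM to 26.7 and 25.4 CPM (4.51, SE 0.15, adjusted p = 3.65e-08). It stood at 31.1 and 26.9 CPM in CAPH2 knockdown and below 0.1 CPM in ARID1A knockout libraries (0.0822 and 0.0522), again with both shRNA groups high.

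For other large rises the wild type alone was low. IFI30, a lysosomal thiol reductase of antigen processing, stood at 0.124 and 0.0724 CPM in wild-type and 3.0 and 3.52 CPM in shRNA control libraries (5.02, SE 0.39). Its level was 4.69 and 6.16 CPM in knockout and 4.98 and 6.35 CPM in knockdown libraries, so the 6 libraries outside the wild type lay together. IFI30 overlaps the coding gene ENSG00000268173, so its values are uncertain. UNC13C, which primes synaptic vesicles, stood at 0.537 and 0.145 CPM in wild-type and at 3.84 and 4.33 CPM in shRNA control libraries (3.61, SE 0.38), and SLC6A15, a neutral amino acid transporter, had a ratio of 19.8 (counting interval 6.52 to 98). Both also stood above the wild type in knockout and knockdown libraries, UNC13C at 2.13 to 3.58 CPM and SLC6A15 at 0.548 to 0.946 CPM. FAT3, an atypical cadherin, rose from 0.0413 and 0.254 CPM to 1.67 and 2.35 CPM (3.68, SE 0.55).

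In a further set the shRNA control was highest of all 4 groups. DLGAP1, a scaffold of the postsynaptic density, stood at 0.207 and 0.398 CPM in wild-type and 6.75 and 6.84 CPM in shRNA control libraries (4.45, SE 0.29), with 2.06 to 3.03 CPM in the other 4. LBH, a transcription cofactor, stood at 0.248 and 0.145 CPM against 6.38 and 5.19 CPM (4.87, SE 0.36), with 0.685 to 2.62 CPM in the other 4. LYPD6B, a surface protein of the Ly6 family, had no wild-type count and stood at 1.24 and 1.03 CPM in shRNA control libraries (at least 19.5-fold higher). FAM83F went from 0 to 0.99 and 1.34 CPM (at least 20.3-fold higher). RIOX1, a ribosomal oxygenase, was counted in the shRNA control alone, at 4.61 and 2.07 CPM (at least 56.5-fold higher), and was at 0 in the other 6 libraries. RIOX1 overlaps HEATR4, so RSEM may have moved reads between them. The call of RIOX1 was lost in DESeq2 (adjusted p = 0.204).

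In some of the largest falls, PAK3, MYOM3, SLC2A2 and ADCY8 among them, the wild type stood above all 6 other libraries. PAK3, a p21-activated kinase, stood at 6.7 and 5.03 CPM in wild-type and 0.124 and 0.419 CPM in shRNA control libraries (−4.39, SE 0.58, adjusted p = 0.000416), and lay between 0 and 0.378 CPM in the other 4, so no other library came near the wild type. MYOM3, a protein of the muscle M-band, showed the same order: 4.71 and 4.2 CPM in wild-type, 0.928 and 0.614 CPM in shRNA control and 0.11 to 0.548 CPM in the other 4 libraries (−2.53, SE 0.35). The glucose transporter gene SLC2A2 (GLUT2) fell from 13.9 and 16.8 CPM to 2.82 and 2.88 CPM (−2.43, SE 0.23), and the adenylyl cyclase gene ADCY8 from 19.7 and 19.0 CPM to 2.6 and 3.46 CPM (−2.67, SE 0.21). ADCY8 lay at 0.161 to 3.4 CPM and SLC2A2 at 0.441 to 2.72 CPM in knockout and knockdown libraries.

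Another group of falls followed the presence of an shRNA. PAEP, or glycodelin, a secreted protein of the endometrium, stood at 33.9 and 30.2 CPM in wild-type and 4.52 and 6.23 CPM in shRNA control libraries (−2.57, SE 0.13, adjusted p = 4.48e-07), with 48.9 and 50.1 CPM in knockout and 2.08 and 1.84 CPM in knockdown libraries. TMEM252, a membrane protein, stood at 3.31 and 1.81 CPM against 0.402 and 0.391 CPM (−2.66, SE 0.32), with 19.5 and 18.7 CPM in knockout and 0.126 and 0.161 CPM in knockdown libraries. PHLDA1, SNAP25 and GPC3 were also lower in both groups with an shRNA than in both without. For SNAP25 the knockout lay above the wild type (3.29 and 2.85 CPM), as for PAEP and TMEM252. For PHLDA1 and GPC3 the knockout lay between wild type and shRNA control, with means of 10.6 and 6.37 CPM. The wild type was thus the highest group for PHLDA1 and GPC3. PHLDA1, which is induced by ERK signalling, fell from 22.6 and 23.6 CPM to 3.71 and 3.3 CPM (−2.72, SE 0.13), and SNAP25, a SNARE of vesicle fusion, from 2.52 and 1.7 CPM to 0.526 and 0.307 CPM (−2.34, SE 0.39). GPC3, the surface proteoglycan glypican-3, fell from 10.6 and 12.3 CPM to 1.64 and 1.87 CPM (−2.71, SE 0.18). PSG3, a pregnancy-specific glycoprotein, fell from 5.37 and 5.98 CPM to 0.712 and 0.642 CPM (−3.06, SE 0.29); it has near-identical paralogs, so its value is uncertain.

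Calls of the last pair of large falls were lost when 1 shRNA control library was left out. AMIGO3 had 5.95 and 5.79 CPM in wild-type and no count in shRNA control libraries (at least 133-fold lower), but stood at 3.1 and 0 CPM in knockout and 6.31 and 0.258 CPM in knockdown libraries, and it overlaps RNF123 and GMPPB. Its fold change had an SE of 2.85. The call was lost without shRNA control library 1 or library 2, though the fold change stayed at −10.56 and −10.54. It was also lost in limma-voom (adjusted p = 0.123). HOXC9, a homeobox gene, had a wild-type to control ratio of 35.5 (counting interval 9.36 to 301), and lost its call without shRNA control library 2 (−4.00). It overlaps HOXC6 and ENSG00000273049, so its values are uncertain too.

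**Figure D2:**
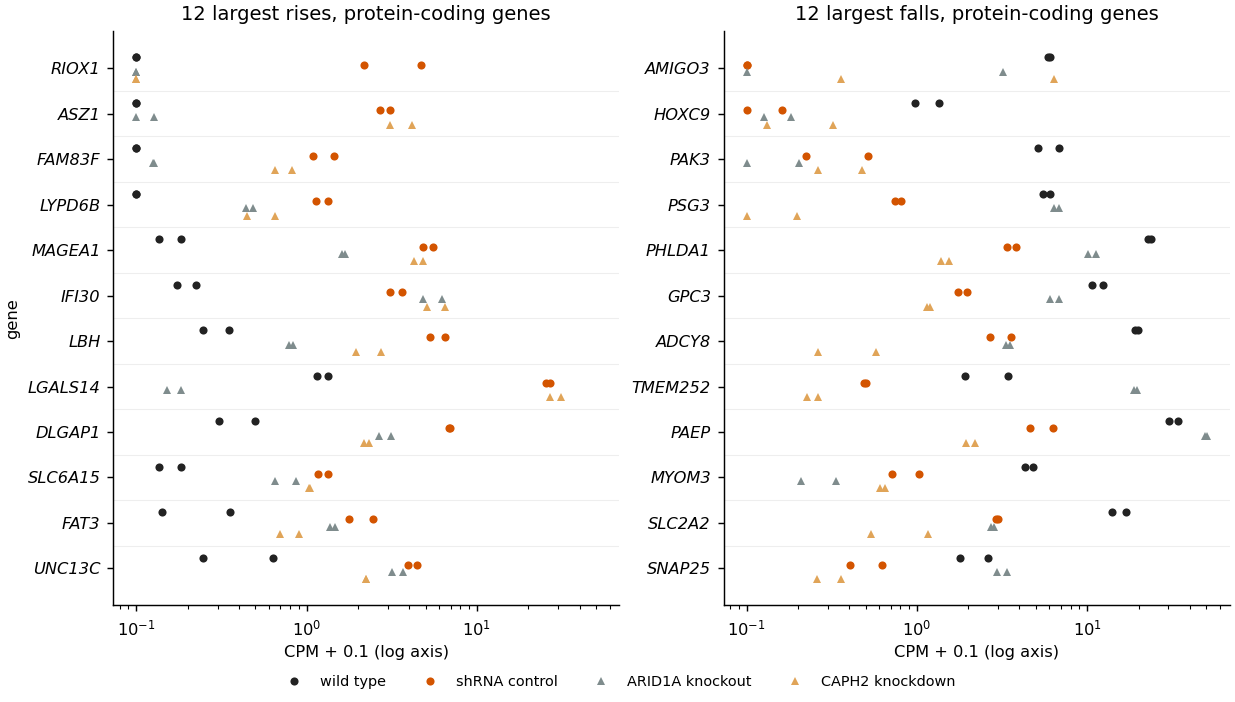
Levels (CPM + 0.1, log axis) in each of the 8 libraries of the 12 protein-coding genes with the largest rises (left) and the largest falls (right) between wild type (black) and shRNA control (orange), with ARID1A knockout (grey triangles) and CAPH2 knockdown (tan triangles); each point is 1 library. For LGALS14, ASZ1 and PAEP the knockdown lies with the shRNA control, and for PAK3, MYOM3 and IFI30 the wild type lies apart from the other 6 libraries.

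The 3 largest rises and falls of long noncoding RNAs follow. LINC01111 and LINC01109, both on chromosome 8, stood at 0.827 and 1.34 CPM and at 1.36 and 1.38 CPM in wild-type libraries. In shRNA control libraries they reached 9.01 and 11.8 CPM (3.25, SE 0.23) and 10.8 and 9.61 CPM (2.89, SE 0.17), and the other 4 libraries lay between 7.06 and 12.7 CPM, so the wild type stood alone for both. LINC01541 on chromosome 18 stood at 14.6 and 14.4 CPM in wild-type and 58.9 and 61.8 CPM in shRNA control libraries (2.05, SE 0.08, adjusted p = 9.06e-08), with 50.1 and 51.4 CPM in knockdown and 5.48 and 4.73 CPM in knockout libraries. LINC03033 fell from 122 and 111 CPM to 28 and 27.2 CPM (−2.07, SE 0.08) and lay at 9.77 to 17.3 CPM in the other 4. LINC01502 fell from 7.44 and 5.43 CPM to 0.99 and 0.949 CPM (−2.72, SE 0.24). LINC02535 was lower as well (−3.08, SE 0.64), a call lost without shRNA control library 1 (−2.83, adjusted p = 0.0594).

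Those layouts were counted over all called genes. Of the 1520 genes higher in the shRNA control, 830 (54.6%) had all 4 libraries with an shRNA above all 4 without one, and of the 1685 lower genes 962 (57.1%) had them all below. Among the 13452 genes not called, 896 (6.66%) and 834 (6.2%) were so ordered. In 631 of the higher genes (41.5%) both wild-type libraries lay below the 6 others, and in 695 of the lower genes (41.2%) above them. In 496 of the higher genes (32.6%) both shRNA control libraries lay above the 6 others, and in 478 of the lower genes (28.4%) below them. A gene can have more than 1 of these orders, and the calls themselves used the wild-type and control libraries, so the shares are descriptions.

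The remaining 2 groups give a contrast with and without an shRNA that shares no library with the one above, although both groups are also perturbed. CAPH2 knockdown against ARID1A knockout gave 7208 called genes (43.3%), 3618 higher (21.7%) and 3590 lower (21.6%). Of the 1520 genes higher in the shRNA control, 820 (53.9%) were also higher in knockdown than in knockout and 235 (15.5%) were lower. Of the 1685 lower genes, 926 (55.0%) were lower there too and 252 (15.0%) were higher. Of the genes not called, 18.9% were higher and 18.1% lower. The shared genes made up 22.7% of those higher and 25.8% of those lower in knockdown than in knockout. Of the 12 largest rises named above, 5 were called in the same direction there and 0 in the opposite one, and of the 12 largest falls, 8 were called in the same direction and 1 in the opposite one. That 1 was MYOM3 (1.58 for knockdown minus knockout). Of the 3 largest rises of long noncoding RNAs, 1 was called in the same direction and 2 in the opposite one. Those 2 were LINC01111 (−0.57) and LINC01109 (−0.54). The 3 largest falls of long noncoding RNAs were all called in the same direction. Of the 5 genes of lowest adjusted p, 4 were called in the same direction and 1, CDH6 (2.98), in the opposite one.

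Genes of defined functions were then described list by list, each count beside the 9.13% called higher and 10.1% called lower over all genes and the median of 0.0. Most called members were higher in the matrix, hypoxia and insulin-like growth factor lists, and lower in the p53, NRF2, heat shock, ERK feedback, replication and histone lists.

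Genes of the extracellular matrix, which builds basement membrane and the tissue around cells, had 14 of 22 members higher, 0 lower and 8 not called, with a median of 0.47. THBS1, the matrix glycoprotein thrombospondin-1, stood at 10.5 and 12.1 CPM in wild-type and 47.5 and 46.9 CPM in shRNA control libraries (2.06, SE 0.10, adjusted p = 4.67e-07). LAMA3, a chain of laminin-332, went from 116 and 122 CPM to 231 and 223 CPM (0.93, SE 0.06), and the basement membrane collagen gene COL4A2 from 126 and 128 CPM to 229.6 and 229.7 CPM (0.85, SE 0.06). The groups did not overlap in THBS1, LAMA3 or COL4A2, as in 57.5% of all genes tested. The other 11 called members, further laminin chains, nidogen-2 and collagens of types IV, VI, VII, XII and XVIII, rose by 0.21 to 0.85.

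Mesenchymal genes, markers of a motile state, went both ways. VIM, the intermediate filament vimentin, rose from 5.04 and 6.37 CPM to 38.3 and 32.4 CPM (2.62, SE 0.13, adjusted p = 4.48e-07), with 52.5 and 45.5 CPM in knockout and 19.5 and 19.8 CPM in knockdown libraries, so the wild type was lowest. CDH2, the neuronal cadherin on chromosome 18, rose from a single wild-type count to 0.588 and 0.475 CPM (ratio 27.4, counting interval 4.61 to 1111). TGFBI, a secreted matrix protein, fell from 19.3 and 16.4 CPM to 7.95 and 8.6 CPM (−1.10, SE 0.12), and FN1, or fibronectin, fell as well (−0.83, SE 0.08). In all, 2 members were higher and 2 lower of 12.

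Epithelial junction and keratin genes had 7 members higher and 4 lower of 25, with a median of 0.08. DSP, or desmoplakin, which anchors keratin at desmosomes, rose from 351 and 348 CPM to 589 and 555 CPM (0.71, SE 0.05), and the tight junction genes TJP3 (1.53, SE 0.25) and CLDN4 (0.53, SE 0.07) rose too. Leaving out shRNA control library 2 gave 3 higher and 2 lower members, and leaving out shRNA control library 1 gave 4 and 3. CDH3, or P-cadherin, fell from 63.0 and 63.0 CPM to 36.6 and 33.1 CPM (−0.86, SE 0.07), as did KRT23 (−0.81), KRT7 (−0.25) and CLDN1 (−0.21). Calls were lost without shRNA control library 2 for KRT7 (−0.23, adjusted p = 0.0644) and CLDN1 (−0.21, 0.0924), and without shRNA control library 1 for CLDN1 (−0.21, 0.104). Ovarian clear cell markers split evenly, with 5 higher and 5 lower of 21. SLC3A1 (0.66), ANXA4 (0.65), GLRX (0.61), SPP1 (0.36) and PAX8 (0.32) rose. GPC3 (−2.71), FOXA2 (−2.04), NAPSA (−1.55), CDH6 (−1.52) and TFPI2 (−0.49) fell. The call of FOXA2 was lost without shRNA control library 1 (−1.51, adjusted p = 0.101) or wild-type library 1 (−1.52, 0.0743). ANXA4, an annexin that is high in clear cell tumours, went from 354 and 412 CPM to 633 and 567 CPM.

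Hypoxia and glycolysis genes, targets of the oxygen-sensing HIF factors and enzymes that turn glucose into lactate, had 14 of 27 members higher, 2 lower and 11 not called, with a median of 0.25. P4HA1, a subunit of the collagen prolyl hydroxylase, stood at 51.9 and 54.0 CPM in wild-type and 118 and 119 CPM in shRNA control libraries (1.16, SE 0.06, adjusted p = 3.53e-07). It was higher still in CAPH2 knockdown (355 and 352 CPM) and at the wild-type level in ARID1A knockout (49.9 and 52.2 CPM). NDRG1 rose from 85.8 and 86.4 CPM to 158 and 151 CPM (0.84, SE 0.07), and PLOD2, a collagen lysyl hydroxylase, from 59.2 and 58.0 CPM to 85.7 and 85.7 CPM (0.55, SE 0.06). The other 11 called higher lay between 0.19 and 0.46 and include LDHA, lactate dehydrogenase (0.45), and PDK1 (0.46). HK2 (−0.23) and P4HA2 (−0.29) fell. The call of P4HA2 was lost without shRNA control library 1 (−0.31), shRNA control library 2 (−0.27) or wild-type library 2 (−0.18), and that of HK2 without shRNA control library 1 (−0.19). Leaving out shRNA control library 1 gave 8 higher members and 0 lower.

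Receptors and binding proteins of the insulin family had 5 of 10 members higher and 0 lower. IGFBP1, a secreted binding protein of insulin-like growth factors, rose from 40.4 and 48.4 CPM to 101 and 104 CPM (1.2, SE 0.10). It stood at 232 and 228 CPM in knockdown and 13.9 and 10.9 CPM in knockout libraries. The insulin receptor substrate gene IRS2 rose from 22.7 and 25.1 CPM to 49.4 and 49.1 CPM (1.04, SE 0.07). The receptor genes INSR (0.87, SE 0.17) and IGF1R (0.82) rose, as did IGFBP7 (0.52), whose call was lost without shRNA control library 1 (0.54, adjusted p = 0.0643) or library 2 (0.50, 0.0811).

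Targets of p53, the transcription factor that answers DNA damage by arrest or death of the cell, had 12 of 25 members lower, 1 higher and 12 not called, with a median of −0.26. FAS, a death receptor, stood at 18.2 and 23 CPM in wild-type and 9.41 and 9.75 CPM in shRNA control libraries (−1.11, SE 0.12, adjusted p = 9.57e-05). The stress cytokine gene GDF15 fell from 48.7 and 44.4 CPM to 23 and 23.5 CPM (−1.0, SE 0.07), and CDKN1A, the cell-cycle inhibitor p21, from 44.5 and 53.6 CPM to 25.9 and 26.7 CPM (−0.90, SE 0.09). Groups did not overlap in these genes, as in 57.5% of all genes tested. GDF15 stood at 82.6 and 79.9 CPM in knockout and 14.2 and 13.1 CPM in knockdown libraries. The list as a whole was mixed in knockdown against knockout, with 6 members called higher and 11 lower (median −0.15). The other 9 lower members lay between −0.87 and −0.24 and include MDM2, the ubiquitin ligase of p53 (−0.39). XPC, a DNA damage sensor, rose (0.34, SE 0.07), a call lost without shRNA control library 1 (0.33, adjusted p = 0.0582). Leaving out shRNA control library 1 gave 7 lower members and 0 higher.

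Targets of NRF2, which switches on antioxidant enzymes, had 10 of 21 members lower and 1 higher, with a median of −0.22. GCLM, the modifier subunit of the enzyme that starts glutathione synthesis, fell from 41.8 and 43.6 CPM to 25.6 and 24.7 CPM (−0.77, SE 0.07, adjusted p = 5.15e-05). SLC7A11, the cystine transporter, fell from 29.8 and 31.3 CPM to 20.5 and 18.8 CPM (−0.64, SE 0.09), and HMOX1, heme oxygenase-1, from 59.2 and 56.5 CPM to 37.2 and 39.7 CPM (−0.59, SE 0.08). The groups did not overlap in these genes, as in 57.5% of all genes tested. The other 7 lower members lay between −0.50 and −0.22. In knockdown against knockout the NRF2 list was mixed, with 7 members called higher and 8 lower (median −0.13). PGD, of the pentose phosphate pathway, rose (0.39, SE 0.08), a call lost without shRNA control library 1 (0.27, adjusted p = 0.0755).

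Heat shock and chaperone genes, which hold other proteins in a folded state, had 8 of 17 members lower and 1 higher, with a median of −0.27 and 1 positive fold change in all. HSPA8, the constitutive HSC70 and among the most abundant transcripts here, fell from 4020.1 and 3793 CPM to 2319 and 2313 CPM (−0.75, SE 0.04, adjusted p = 1.06e-06). It stood at 3479 and 3529 CPM in knockout and 2309 and 2278 CPM in knockdown libraries, so libraries with an shRNA lay below those without. HSPH1, a partner of HSP70, fell from 243 and 233 CPM to 165 and 166 CPM (−0.52, SE 0.05). The mitochondrial pair HSPE1 (−0.44) and HSPD1 (−0.41), DNAJA1 (−0.33), HSP90AA1 (−0.30) and STIP1 (−0.27) fell, the last call being lost without shRNA control library 2 (−0.21). HSPA1A was lower too (−0.82, SE 0.25); it has a near-identical copy and is uncertain, and its call was lost without shRNA control library 1 (−0.60), shRNA control library 2 (−1.10) or wild-type library 1 (−0.64). The higher member was HSF1, the transcription factor of the response (0.34, adjusted p = 0.0499), whose call was lost without shRNA control library 1 (0.32), shRNA control library 2 (0.36) or wild-type library 1 (0.24).

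Promoters of the heat shock and NRF2 lists were searched because several members of each were called lower. Those printed all hold a match. Lower members without a match, among them HSPH1 (−0.52) and NQO1 (−0.50), are not printed. Bases 250 to 1 before the start were taken from RefSeq (GRCh38.p14), where 8 of 8 lower heat shock members and 7 of 10 lower NRF2 members had an entry. Capitals mark matches on either strand to GAANNTTC, inverted units of the heat shock element, or to TGACNNNGC, the core of the antioxidant response element. The stretches shown are, for HSPA8, chr11:123062137-123062386 (minus strand), for DNAJA1 chr9:33025023-33025272 (plus), for GCLM chr1:93909431-93909680 (minus) and for ME1, the malic enzyme gene, chr6:83431052-83431301 (minus).
HSPA8: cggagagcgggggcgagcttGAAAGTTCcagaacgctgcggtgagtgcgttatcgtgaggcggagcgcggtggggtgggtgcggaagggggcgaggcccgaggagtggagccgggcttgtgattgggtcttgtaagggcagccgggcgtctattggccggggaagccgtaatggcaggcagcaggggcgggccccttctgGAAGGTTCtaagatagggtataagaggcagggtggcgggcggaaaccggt
DNAJA1: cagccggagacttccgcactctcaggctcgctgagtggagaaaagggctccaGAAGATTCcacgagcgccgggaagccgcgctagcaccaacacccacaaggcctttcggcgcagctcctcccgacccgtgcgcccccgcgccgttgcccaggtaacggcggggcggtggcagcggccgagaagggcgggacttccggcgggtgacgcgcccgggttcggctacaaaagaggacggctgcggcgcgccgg
GCLM: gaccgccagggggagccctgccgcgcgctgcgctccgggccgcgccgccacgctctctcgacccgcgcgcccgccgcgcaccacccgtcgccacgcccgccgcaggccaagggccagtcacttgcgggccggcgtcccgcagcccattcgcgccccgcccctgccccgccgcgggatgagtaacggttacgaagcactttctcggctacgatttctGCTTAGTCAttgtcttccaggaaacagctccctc
ME1: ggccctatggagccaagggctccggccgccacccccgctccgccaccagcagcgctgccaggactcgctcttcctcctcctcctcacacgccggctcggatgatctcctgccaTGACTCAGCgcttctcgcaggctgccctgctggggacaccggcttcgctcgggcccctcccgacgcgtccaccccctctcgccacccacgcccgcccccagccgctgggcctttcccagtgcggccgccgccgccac
The first motif was in 3 of the 8 lower heat shock members (HSPA1A, HSPA8 at 2 places, and DNAJA1) in 5 of the 15 tested members with an entry, and in 5.85% of 27305 promoters of that length. It was thus also in members that were not called lower. The second was in 3 of the 7 lower NRF2 members (GCLM, ME1 and TXNRD1), in 4 of the 16 tested members with an entry, and in 11% of all promoters. Both spellings replaced others after their matches had been seen: a longer heat shock element, with NNGAA added after GAANNTTC, was in 1 of 8 members and 0.439% of all promoters, and the looser TGANNNNGC in 4 of 7 members and 35.4%. Neither motif is contained in the other, and a match is a description of letters only.

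The ERK feedback list holds genes that rise with growth factor signalling, only some of which damp it. It had 6 of 14 members lower and 1 higher, with a median of −0.26. After PHLDA1, DUSP6, the phosphatase of ERK, fell from 26.3 and 27.5 CPM to 10.9 and 10.7 CPM (−1.32, SE 0.09, adjusted p = 3.99e-06). DUSP6 stood at 11.1 to 13.8 CPM in knockout and knockdown libraries, so the wild type was highest. DUSP5, another such phosphatase, fell (−0.75), as did SPRY2 (−0.51) and SPRY4 (−0.99, SE 0.21), inhibitors of receptor signalling. The call of SPRY4 was lost without shRNA control library 2 (−0.96, adjusted p = 0.0566) or wild-type library 2 (−0.66, adjusted p = 0.0536). The higher member was DUSP4 (0.49, SE 0.11), a call lost without shRNA control library 2 (0.44, adjusted p = 0.0793). The list also holds CCND1, or cyclin D1, which fell from 287 and 278 CPM to 204 and 198 CPM (−0.49, SE 0.05). CCND1 is counted in the G1/S list below as well.

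Cell-cycle genes were taken as 3 lists. Of 30 genes of G1/S and DNA replication, 10 were lower and 0 higher, with a median of −0.14. Among them CCNE2, or cyclin E2, went from 45.8 and 47.6 CPM to 25.5 and 32.8 CPM (−0.68, SE 0.12), and CDK6, the kinase partner of cyclin D, from 55.8 and 68.7 CPM to 41.8 and 40 CPM (−0.61, SE 0.10). Leaving out shRNA control library 1 or library 2 gave 5 lower members. Of 13 replication-dependent histone genes, 6 were lower and 0 higher, led among stable calls by the linker histone gene H1-5, from 455 and 412 CPM to 326 and 339 CPM (−0.38, SE 0.06); histone genes are near-identical and uncertain singly, and leaving out shRNA control library 1 gave 3 lower. Of 33 mitotic genes, 9 were lower and 3 higher, with a median of −0.09. CENPE, a kinetochore motor, fell from 252 and 212 CPM to 130.1 and 136 CPM (−0.80, SE 0.11) and BUB3, of the spindle checkpoint, from 103 and 109 CPM to 79.0 and 82.7 CPM (−0.39, SE 0.06). UBE2C (0.30), KIF20A (0.19) and NUSAP1 (0.41) were called higher. All 3 calls were lost without shRNA control library 2 (0.28, 0.19 and 0.36), those of UBE2C (0.31) and KIF20A (0.18) also without library 1, and that of UBE2C also without wild-type library 2 (0.27). The mitotic list had 3 lower and 0 higher members without shRNA control library 2 and 4 and 1 without library 1. The proliferation marker MKI67 stood at 377 and 382 CPM against 332 and 335 CPM and was not called (−0.19, adjusted p = 0.0512).

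The complexes the study perturbs were examined in these unperturbed groups too. Of 23 condensin and cohesin genes, 8 were lower and 1 higher, with a median of −0.15. SMC4, an ATPase of both condensins, fell from 521 and 523 CPM to 369.7 and 376 CPM (−0.49, SE 0.05), and SMC3, of cohesin, from 563 and 469 CPM to 369.5 and 368 CPM (−0.49, SE 0.08). NIPBL, which loads cohesin, fell from 81.2 and 85.8 CPM to 59.5 and 65.5 CPM (−0.42, SE 0.06). NCAPD3, of condensin II, was the higher member (0.30, SE 0.08), a call lost without shRNA control library 1 (0.34, adjusted p = 0.0565) or library 2 (0.26, adjusted p = 0.141), and without either the condensin and cohesin list had 4 lower members. Of 27 SWI/SNF subunits, 5 were higher and 1 lower, with a median of 0.04, against 3 and 3 with an offset for GC content and 2 higher without shRNA control library 1 or 2. The core subunit gene SMARCC1 rose from 196 and 175 CPM to 251 and 247 CPM (0.43, SE 0.06) and SS18 from 96.0 and 95.6 CPM to 118 and 129.9 CPM (0.37, SE 0.06). SMARCA2, an ATPase of the complex, fell from 51.9 and 50 CPM to 41.7 and 40 CPM (−0.32, SE 0.06), a call lost without shRNA control library 2 (−0.29, adjusted p = 0.0537).

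Genes that process hairpins or sense foreign nucleic acids were examined because a control shRNA enters the first of these pathways. Of 13 genes of RNA interference and microRNA processing, 3 were lower (23.1%, against 10.1% of all genes) and 0 higher, with a median of −0.11. DICER1, which cuts hairpins into short RNAs, went from 232 and 249 CPM to 190 and 189 CPM (−0.34, SE 0.06, adjusted p = 0.00164). DICER1 stood at 156 and 147 CPM in knockout, which carries no shRNA, and at 190 and 190 CPM in knockdown libraries, so the wild type was highest. In knockdown against knockout, 3 of the 13 were called higher and 4 lower. DROSHA (−0.28) and DGCR8 (−0.29), which make the first cut of microRNA hairpins, lost their calls without shRNA control library 2 (−0.24 and −0.20) or wild-type library 2 (−0.22 and −0.23), and DROSHA also without shRNA control library 1 (−0.32). AGO2, which carries short RNAs, stood at 40.4 and 37.4 CPM against 37.4 and 34.6 CPM and was not called (−0.11, adjusted p = 0.421). Of 14 nucleic acid sensors, 0 were higher and 1, IFI16, was lower (−0.50, adjusted p = 0.0421), a call lost on leaving out any 1 of the 4 libraries (−0.57 to −0.43).

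Of 22 genes of the type I interferon response, 7 were higher and 1 lower, with a median of 0.37, against 2 higher without shRNA control library 1 or 2, 4 without wild-type library 1 and 3 without wild-type library 2. STAT2, a transcription factor of the response, rose from 30.5 and 31.5 CPM to 39.3 and 41.1 CPM (0.38, SE 0.07, adjusted p = 0.0033). IFIT1, an antiviral RNA-binding protein, rose from 3.6 and 1.81 CPM to 4.86 and 5.14 CPM (0.90, SE 0.25). Its call was lost without shRNA control library 1 (0.94), shRNA control library 2 (0.86) or wild-type library 2 (0.48). HERC5 was lower (−0.29), a call lost without shRNA control library 1 (−0.18) or wild-type library 2 (−0.19). Antigen presentation genes had 6 of 13 members higher and 1 lower, with a median of 0.20. The class I gene HLA-E rose from 119.8 and 106 CPM to 165 and 166 CPM (0.55, SE 0.07), as did TAPBP, which loads peptides (0.66, SE 0.11). HLA genes are similar in sequence and uncertain singly. TAP1, the peptide transporter, was lower (−0.23, adjusted p = 0.0443), a call lost on leaving out any 1 of the 4 libraries (−0.25 to −0.22). Of 19 NF-kB and cytokine genes, 3 were higher and 0 lower: CXCL1 (1.82 and 1.85 CPM to 3.65 and 3.27 CPM), IL6 (70.1 and 65.9 CPM to 96.9 and 93.0 CPM) and ICAM1 (0.29). The call of ICAM1 was lost without shRNA control library 2 (0.25) or wild-type library 2 (0.24).

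**Figure D3:**
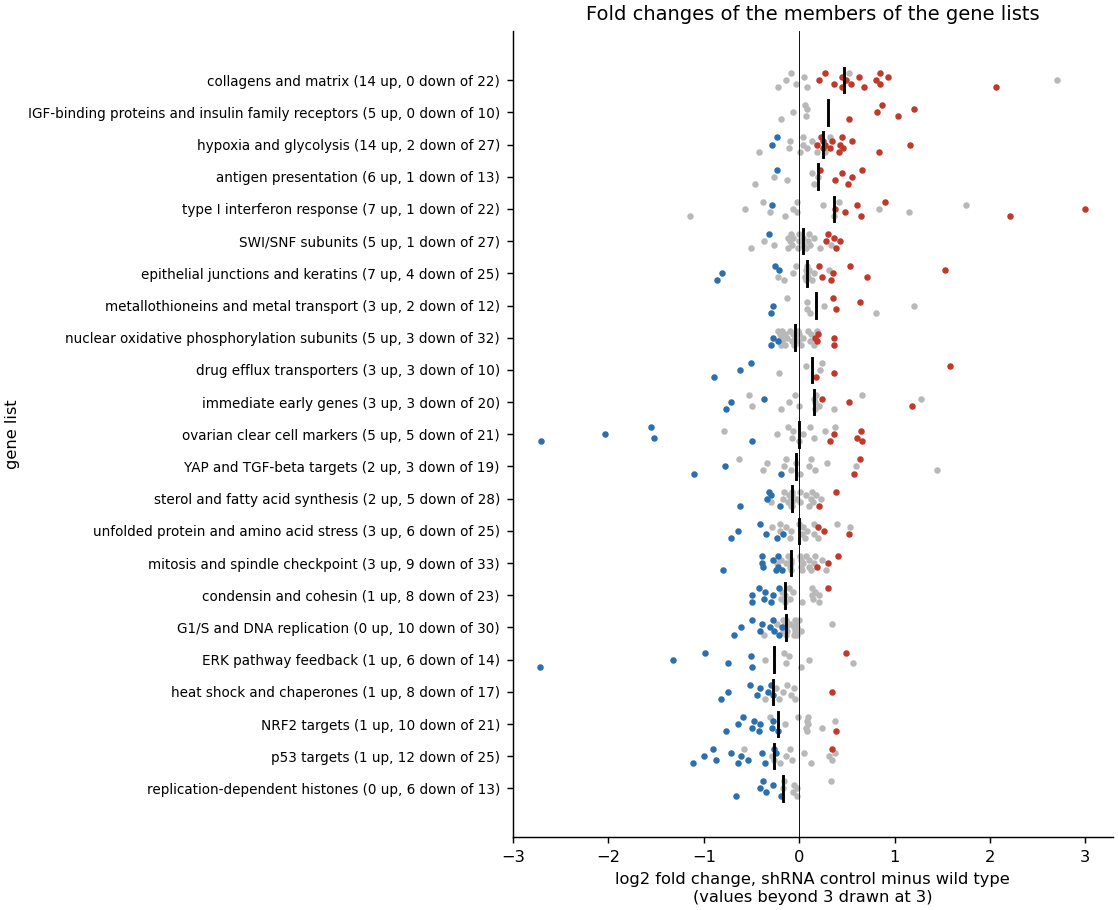
Log2 fold changes (x, shRNA control minus wild type) of the members of the 23 lists with at least 10 members tested and 5 called; each point is a gene, red if called higher, blue if called lower and grey if not called, and black bars are medians over tested members. Matrix genes (14 higher, 0 lower of 22) lie at the top, and p53 targets (1 higher, 12 lower of 25) and histone genes (0 higher, 6 lower of 13) at the bottom.

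Lists with few or opposed calls complete the description. Drug efflux transporters had 3 higher and 3 lower of 10, with ABCB1, or P-glycoprotein, going from 2.4 and 2.14 CPM to 6.99 and 6.56 CPM (1.58, SE 0.20). The efflux list had 1 higher and 2 lower without shRNA control library 1 and 2 and 1 without library 2. Metal transport genes had 3 higher and 2 lower of 12, led by SLC39A10, a zinc importer (333 and 307 CPM to 505 and 493 CPM), but 2 higher and 0 lower without shRNA control library 1 and 1 and 0 without library 2. Immediate early genes had 3 higher and 3 lower of 20, with ATF3 higher (1.18, SE 0.15), but 1 higher and 2 lower without shRNA control library 1 and 2 and 1 without library 2. Unfolded protein and amino acid stress genes had 3 higher and 6 lower of 25 (2 lower without shRNA control library 2 and 3 without library 1), with VLDLR lower (−0.71, SE 0.07). Sterol and fatty acid genes had 2 higher and 5 lower of 28, with HSD17B7 lower (−0.62, SE 0.10), but 0 higher and 2 lower without shRNA control library 1, 0 and 3 without library 2, 0 and 6 without wild-type library 1 and 1 and 5 without wild-type library 2. YAP and TGF-beta targets had 2 higher and 3 lower of 19, with F3 lower (−0.78, SE 0.09), and 1 higher without shRNA control library 2 or wild-type library 1. WNT genes had 2 higher and 2 lower of 13, with 0 higher and 1 lower without shRNA control library 1, 0 and 2 without library 2, 2 and 1 without wild-type library 1 and 1 and 2 without wild-type library 2. Of 30 cytosolic ribosomal protein genes, 0 were higher and 1, RPL11, was lower (−0.33, SE 0.05). Without wild-type library 1 the ribosomal list had 5 higher and 4 lower, and without wild-type library 2 it had 2 and 3. Of 32 oxidative phosphorylation genes 5 were higher and 3 lower, among them NDUFV2 (0.37, SE 0.06) and ATP5F1C (0.36, SE 0.06). The split of the oxidative phosphorylation list depended on single libraries: 2 higher and 0 lower without shRNA control library 1 or 2, and 4 higher and 9 lower without wild-type library 1. No marker of fibroblasts (2 tested), leukocytes (4 tested) or endothelium (1 tested) was called by edgeR, and without wild-type library 1 a leukocyte marker was called higher.

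Small nucleolar RNAs, most of which guide chemical modification of ribosomal RNA, were mostly higher where called. Of 162, 34 rose (21%) and 1 fell (0.617%), with a median of 0.36. They took 1.72% and 1.70% of all counts in shRNA control against 1.01% and 1.02% in wild-type libraries, 1.70% and 1.5% in knockout and 1.08% and 0.885% in knockdown libraries. SNORD3A, the U3 RNA needed for ribosomal RNA cleavage, rose from 7832 and 7807 CPM to 14417 and 14466 CPM (0.89, SE 0.10, adjusted p = 0.000183), and the member that fell is a copy annotated as U3 on chromosome X (mean 0.594 CPM in wild type), which is uncertain for that reason; its call was lost without either shRNA control library. Of 57 box C/D RNAs outside the SNORD116 family, a class that mostly guides methylation, 14 rose and 0 fell (median 0.68). They summed to 8719.5 and 8619.7 CPM in wild-type and 15747 and 15726 CPM in shRNA control libraries. SNORD3A is among them and made up most of these sums, and so most of the share of counts in both groups. As RSEM divides reads among similar copies, the value of SNORD3A is uncertain too. Of 76 box H/ACA RNAs, which guide pseudouridylation, 9 rose and 0 fell (median 0.16). Their sum went from 1419 and 1282 CPM to 1512 and 1513 CPM. Of 21 SNORD116 copies, 10 rose and 0 fell (median 1.11), but only 18 distinct sets of values were found among them, and their sum went from 34.1 and 21.8 CPM to 60.5 and 58.2 CPM. How short RNAs were kept or lost in library preparation was not tested.

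Base composition went with the direction of change. Protein-coding genes were put in 10 bins of equal size by transcript GC content. Of the 1293 genes of lowest GC (30.2% to 38.6%), 6.96% were called higher and 26.3% lower, with a median of −0.13. Of the 1293 of highest GC (61.6% to 74.5%), 9.59% were higher and 2.24% lower, with a median of 0.11. Between the 2 libraries of wild type, and of shRNA control, the medians of all bins lay within 0.02 of zero. The part of base composition in the calls was not tested beyond the offset that follows. With an offset for GC content, chosen after seeing the data, 2919 genes were called (1418 higher and 1501 lower), of which 2636 were among the 3205 (82.2%) and 0 had the opposite sign. The matrix list then had 11 higher and 0 lower, hypoxia 12 and 2, p53 targets 1 and 12, NRF2 targets 1 and 10, heat shock 0 and 8, and mitosis 4 and 6.

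**Figure D4:**
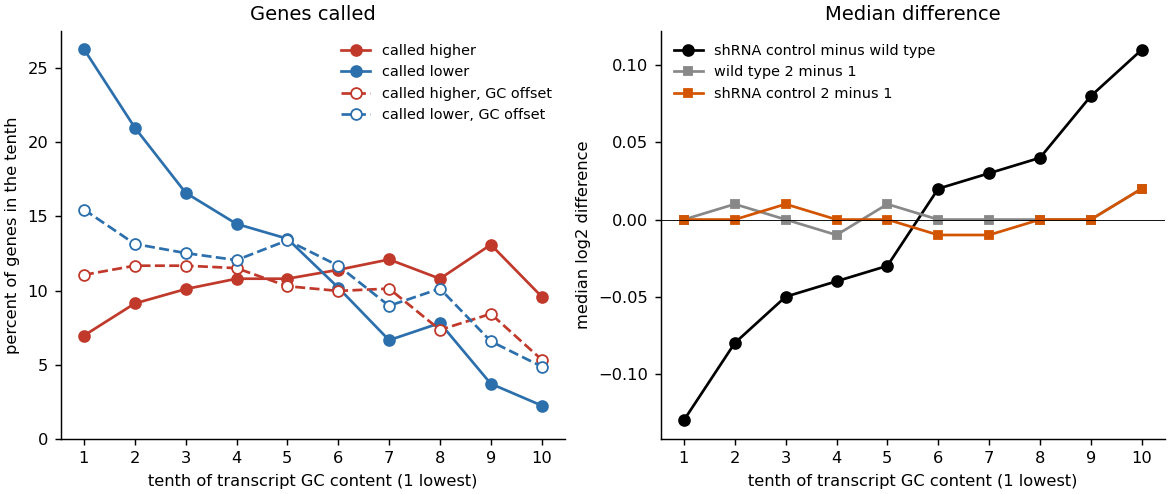
Left: percent of protein-coding genes called higher (red) or lower (blue) in each of 10 bins of transcript GC content, in the fit as reported (filled, solid) and with a GC offset (open, dashed). Right: median log2 difference per bin between the groups (black) and between the 2 libraries of wild type (grey) or of shRNA control (orange); the black line runs from −0.13 to 0.11 while both others stay within 0.02 of zero.

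Calls were also counted by chromosome. Of 236 genes tested on chromosome 18, 69 were called higher (29.2%) and 4 lower (1.69%), the median was 0.24 (1.18-fold), and 78.8% of the genes had a positive fold change. On the other 22 chromosomes (X included), medians lay between −0.06 and 0.07 and the share called higher between 6.73% and 11.1%. A median over a whole chromosome can hide runs of neighbouring genes that went opposite ways, as on chromosome 10 (below). The 6 consecutive windows of about 40 tested genes along chromosome 18 had medians of 0.20 to 0.29, and all 12 windows of 20 were positive (0.13 to 0.62). With a GC offset the median was 0.27, and leaving out 1 library gave 0.23 to 0.27. Against the same wild-type libraries, the median of the chromosome was −0.27 in ARID1A knockout and 0.20 in CAPH2 knockdown. It was −0.04 for knockdown minus shRNA control and 0.44 for knockdown minus knockout, so both groups with an shRNA lay above the wild type and the knockout below it. The number of copies of the chromosome was not measured here.

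The 69 genes rose by 0.19 to 4.52 (CDH2, from a single wild-type count), with a median of 0.44 against 0.49 over all genes called higher. Of the 69, 44 were under 1.5-fold, as were 68.4% of all called genes, and 9 reached 2-fold. Those 9 included DLGAP1, CDH2 and LINC01541, and also BCL2, an inhibitor of apoptosis, from 26.7 and 29.5 CPM to 71.9 and 67.5 CPM (1.31, SE 0.08), and DSEL, a dermatan sulfate epimerase, from 36.3 and 39.3 CPM to 93.3 and 84.3 CPM (1.23, SE 0.07). BCL2 and DSEL were picked after their values were seen. LAMA3, SS18 and NDUFV2, given above with their lists, lie on the chromosome too. The 4 lower genes were FHOD3 (−1.63), SLC14A2 (−1.25), CCDC68 (−0.80) and the p53 target PMAIP1 (−0.54). The call of SLC14A2 was lost without shRNA control library 2 (−1.06), and that of FHOD3 on leaving out any 1 of the 4 libraries (−1.70 to −1.55).

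**Figure D5:**
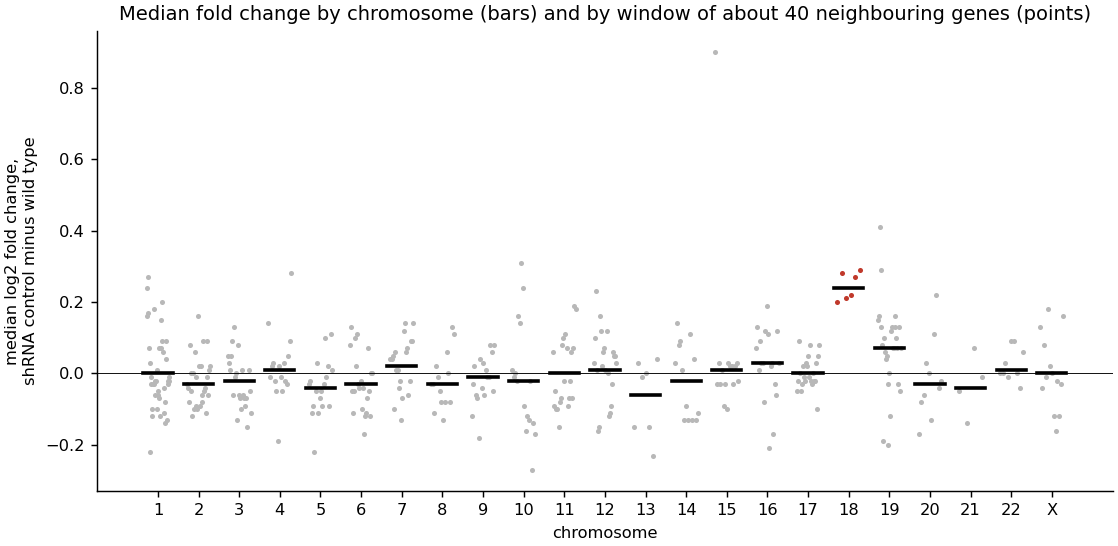
Median log2 fold change (y, shRNA control minus wild type) of all tested genes per chromosome (bars) and of each window of about 40 consecutive tested genes (points, in order along the chromosome). The bar and all 6 points of chromosome 18 (red) lie between 0.20 and 0.29, while the bars of the other chromosomes lie between −0.06 and 0.07.

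Windows of neighbouring genes were also examined on all chromosomes. Over 402 windows of about 40 genes, 16 had a median of at least 0.2 and 6 one of −0.2 or less. The highest, BMS1P15 to UBE3A on chromosome 15 (0.90), holds the SNORD116 copies, and its 7 protein-coding genes had a median of 0.13. TLE6 to TINCR on chromosome 19 (median 0.41) had 16 genes higher and 0 lower of 40. There MFSD12, a lysosomal transporter, went from 72.9 and 70.4 CPM to 140 and 140.5 CPM (0.97, SE 0.06) and EEF2, an elongation factor of translation, from 1056 and 979 CPM to 1384 and 1381 CPM (0.44, SE 0.05). SLC25A16 to NUDT13 on chromosome 10 (0.31) had 17 higher and 0 lower, with PSAP, the precursor of lysosomal saposins, from 454 and 449 CPM to 719 and 678 CPM (0.63, SE 0.05). The lowest window, INA to ABLIM1 on chromosome 10 (−0.27), had 16 lower and 2 higher, with ADD3, a protein of the membrane skeleton, from 635 and 637 CPM to 409 and 404 CPM (−0.65, SE 0.05), and SMC3. On chromosome 10, consecutive windows from RASGEF1A to ZNF503-AS2 had medians of 0.14 to 0.31, and those from LRMDA to AGGF1P2 of −0.27 to −0.02. The median of chromosome 10 as a whole was −0.02. On chromosome 19, consecutive windows from PLPP2 to C3P1 had medians of 0.13 to 0.41. The window from TCEA3 to ZNF593OS on chromosome 1 (−0.22) had 14 lower and 3 higher. There CLIC4 fell from 534 and 524 CPM to 395 and 394 CPM (−0.42, SE 0.05) while STMN1, which destabilises microtubules, rose from 562 and 531 CPM to 840.4 and 749.5 CPM (0.54, SE 0.06).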

How the data were processed

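Expected counts of Ensembl genes, which need not be whole, were deposited by the authors in 1 table that covers all 8 libraries. The submitters' processing notes name Bowtie2, RSEM 1.2.12 and hg19; neither annotation nor strand setting is stated. Per the labels' protocols, Trizol RNA was treated with DNase and prepared with a TruSeq total RNA kit. The deposited expected counts were rounded to whole numbers. RSEM divides reads among similar or overlapping genes, so single values of such genes are uncertain. Without a stated strand setting, antisense partners cannot be told apart.

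Names, gene types, gene order and transcript GC came from reference tables and GENCODE 29 on GRCh38; of 29952 IDs with a count, 28427 had a symbol. Promoters and their coordinates came from RefSeq (GRCh38.p14). No coordinates of genes are given, because the builds differ.

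The tests used edgeR 4.0.16 (R 4.3.3): filterByExpr by group, TMM scaling, a quasi-likelihood F-test of group means over all 8 libraries (4 residual degrees of freedom, biological coefficient of variation 7.74%), and Benjamini-Hochberg adjusted p under 0.05. The script was tested on simulated counts with 200 changed genes. A count was worth 0.0272 to 0.0407 CPM in the 4 libraries compared. Alternatives used DESeq2 1.42.0, limma 3.58.1 (voom), other scalings and filters, left-out libraries and a replicate block; a GC offset and a fit of protein-coding genes alone were added after seeing the data.

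Named genes were ARID1A, NCAPH2, the 12 largest rises and falls among protein-coding genes and the 3 largest among long noncoding RNAs (at least 1 CPM, groups not overlapping), the 5 lowest adjusted p, in each list the 3 called members of largest change in its more frequent direction and 1 in the other, and 2 called members of each of the 3 most shifted windows each way. Y-linked genes and XIST were left out, and a few items that the rule names are not reported here. Others, among them MDM2, FN1, FOXA2, UBE2C, BCL2, STAT2, AGO2 and MKI67, were chosen after their values were seen. The members and lists were chosen with earlier results of these data known. Bulk RNA cannot tell fewer cells of a type from less RNA per cell.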

Additional observations from a re-analysis of the deposited data

How the results depend on the processing

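The count of genes called between shRNA control and wild type was 3205. It was 2209 with only the 4 libraries compared, 3202 with DESeq2's size factors, 3141 with upper quartile scaling (1614 higher, 1527 lower), 3759 with no filter, 2808 in DESeq2's own test and 3093 in limma-voom. Leaving out 1 library gave 1553 to 3410 genes. The lowest counts were those without shRNA control library 1 (1553) and library 2 (1599); the lone sample of a group is then assumed to vary like the other groups, and of the 3205 genes 47.2% and 48.2% were called again. The count for knockdown minus knockout was 7208, and 5580 to 5754 without 1 library. The replicate numbers did not pair the samples: correlations of deviations between same-numbered libraries lay between −0.0239 and 0.0296, and 0.0293 for wild type and shRNA control. ARID1A, not called, went from −0.31 without wild-type library 1 to 0.15 without wild-type library 2. With a replicate block, 3026 genes (1448 higher, 1578 lower) and 7072 genes were called. No list named as one-sided changed direction under another scaling, and none of these scalings moved the median of all genes by more than 0.015. Depth limits the genes up to 1.3 CPM, where the median SE was 0.643.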
